A study of Mus musculus with 6 samples.

Results

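The genes described here encode the proteins that seal and fasten epithelial cells to each other: claudins and the other tight junction proteins, the desmosomal cadherins and their plaque, the classical cadherins Cdh1 and Cdh3, and Epcam. Members were chosen by name: numbered claudins (Cldn), Tjp1 to Tjp3, desmogleins (Dsg), desmocollins (Dsc), plakophilins (Pkp), Cgn and Cgnl1, together with Ocln, Marveld2, Marveld3, F11r, Jup, Dsp, Cdh1, Cdh3, Epcam, Ppl and Evpl. Where several probe sets were annotated to a gene alone, the brightest by its mean on the 6 arrays stood for it. This gave 45 genes of the 18193 on the array that could be named, covered by 81 probe sets. Genes entered by name, while values decided only which probe set stood for a gene. The names were chosen with earlier results of these data known. Genes of these names with no probe set of their own were not analysed here.

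Tight junctions close the space between neighbouring epithelial cells. Claudins form the paired strands of the seal, and which claudins are present sets which ions and how much water pass between the cells, while plaque proteins such as ZO-1 (Tjp1) tie the strands to actin. Desmosomes are the spot-like fasteners below them, in which desmogleins and desmocollins bind across the gap and plakoglobin (Jup), plakophilins, desmoplakin (Dsp) and the plakins link them to keratin filaments. In the uterus, junctions of the luminal epithelium are remodelled under ovarian steroids before an embryo attaches.

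The samples were uterine tissue of female mice of mixed background that carried the floxed Gata2 allele (GATA2 f/f). All mice had been ovariectomized at 6 weeks of age and were 8 weeks old at sampling. One group received 1 mg of progesterone in 100 µl of sesame oil and the other the sesame oil vehicle alone, and uteri were taken 6 h later. Each group had 3 Affymetrix arrays. The design text describes RNA pooled from 3 mice per genotype without saying whether each array held its own pool, so the spread behind each p-value may be partly or wholly technical. No recombinase is named for either group. Ihh, the hedgehog ligand that progesterone induces in uterine epithelium, was checked first, together with Pgr and Gata2. The log2 level of Ihh was 8.79, 8.46 and 8.61 after progesterone, against 7.13, 6.02 and 6.61 after oil (limma adjusted p = 0.00605). Pgr had a log2 change of -1.06 (limma adjusted p = 0.00255) and Gata2 one of 0.76 (limma adjusted p = 0.0411). When each of the 6 arrays was left out in turn, the Gata2 call held in only 1 fit.

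Markers of epithelium were read beside the members. All levels are log2 RMA values, and the TrpnX controls, bacterial sequences absent from mouse, lay between 2.87 and 3.34. None of the 19 measured uterine epithelium markers lay at or below 3.34 on every array. The lists for other cell types likewise had none, except keratinized squamous epithelium with 1. Detection therefore does not show which cells make the members. Krt8, a keratin of simple epithelium, was at 11.45, 10.78 and 11.79 after progesterone and at 11.66, 11.58 and 11.86 after oil. Of the 45 members, 40 were above 3.34 on every array and 2, Cldn19 and Dsg1b, were at or below it on every array. Of all 18193 genes, 15844 were above it on every array and 796 were at or below it on every array. Not every member is confined to epithelium: Cldn5 is the claudin of blood vessel endothelium, and Tjp1, Jup and Pkp4 are made in many cell types. Whole tissue was measured, so fewer cells of a type and less RNA per cell cannot be told apart.

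Arrays of each group stood apart in neutrophil and macrophage markers. The log2 of the summed level of these 11 markers was 10.63, 13.68 and 14.29 on progesterone replicates 1 to 3, against 11.07, 11.59 and 14.01 on oil replicates 1 to 3. None of the 11 passed in limma, none had an unadjusted p under 0.05 and none was at the control level. Over all 18193 genes, 4730 had an unadjusted limma p under 0.05, the share to set beside such counts for any list.

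After progesterone, 5 members were higher and 6 were lower. Cldn2, Cldn3, Cldn23 and Cldn1 and the plakin Ppl rose, by 7.29-fold in the case of Cldn2 and by 1.53-fold to 2.29-fold in the others. Cldn5, Cgnl1, Tjp1, Dsc2, Evpl and Pkp4 fell, by 1.30-fold to 1.88-fold. A gene was called where its limma p, adjusted by Benjamini-Hochberg across the 18193 genes, was below 0.05. The higher members were 11.1% of the 45, beside 5.92% of all genes, and the lower members were 13.3%, beside 5.83% of all genes. The median log2 change was 0.00 over the members and -0.02 over all genes. The progesterone and oil arrays did not overlap for 15 members, or 33.3%, close to the 30.4% of all genes. In a fit added after the data were seen, without the 3 arrays high in neutrophil and macrophage markers (progesterone replicates 2 and 3 and oil replicate 3), none of the 18193 genes passed, with 1 progesterone array left, which that fit assumes to vary like the 2 oil arrays. The log2 changes there were 3.14 for Cldn2, 1.29 for Cldn3, 1.34 for Cldn23, 0.58 for Cldn1 and 1.65 for Ppl. They were -1.04 for Cldn5, -0.65 for Cgnl1, -0.24 for Tjp1, -0.33 for Dsc2, -0.45 for Evpl and -0.50 for Pkp4.

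**Figure D1:**
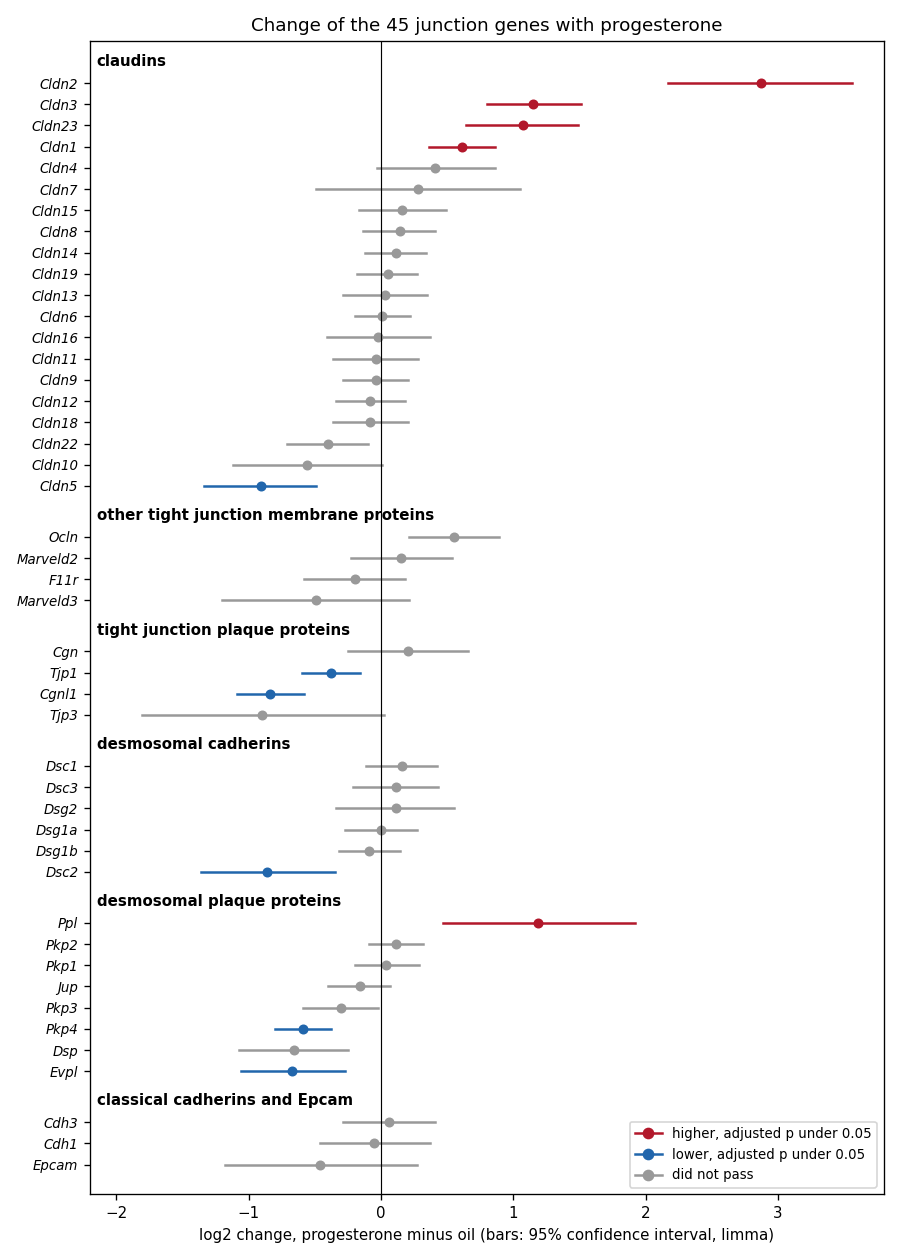
Log2 change (progesterone minus oil, horizontal axis) of each of the 45 junction genes, grouped by role, with 95% confidence intervals from limma. Cldn2 stands at 2.87 and no other member exceeds 1.19 in size, and the claudins that rose head their group while Cldn5 ends it at -0.91.

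Claudins made up 20 of the members, of which 4 rose, 1 fell and 15 did not pass. Cldn2, the claudin of leaky epithelia whose strands let cations and water through, changed most. It measured 8.64, 8.66 and 8.88 after progesterone, against 5.63, 5.36 and 6.59 after oil. The 3 progesterone arrays lay close together and more than 2 log2 units above the highest oil array, which was oil replicate 3. The log2 change was 2.87 ± 0.296 (SE), with a 95% confidence interval from 2.17 to 3.56 and a limma adjusted p of 0.00318. Without oil replicate 3 it was 3.23. A second probe set annotated to Cldn2 did not pass, with means of 4.45 after progesterone and 4.22 after oil (adjusted p = 0.431 among all probe sets), so the rise rests on 1 of the 2. With the mean of both, the log2 change was 1.55 (adjusted p = 0.00405).

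The bases just before the start sites are shown for 4 members with large changes that passed, taken from the RefSeq promoter table of GRCm38.p6, in which 27 of the 45 members and 7 of the 11 that passed were matched, the desmogleins and desmocollins not being looked up. The searched window ran from 250 bases before to 50 after the start, of which the first 250 are printed 5′ to 3′ on the gene's strand. Ppl, Cldn23 and Dsc2 are not shown. Capitals mark matches, on either strand, to the steroid receptor hexamer AGAACA, the GATA hexamer AGATAA, the Snail and Zeb E-box CAGGTG, the grainyhead motif AACCGGTT and the TATA box TATAAA, the last of which was added after the sequences were seen.

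Cldn2 (GRCm38.p6, chrX:139800558-139800807, plus strand): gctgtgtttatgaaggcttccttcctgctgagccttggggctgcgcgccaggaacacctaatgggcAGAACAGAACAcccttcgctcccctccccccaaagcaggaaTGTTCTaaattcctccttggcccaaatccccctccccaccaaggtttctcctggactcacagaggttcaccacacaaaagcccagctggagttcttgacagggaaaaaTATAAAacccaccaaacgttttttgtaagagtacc

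Cldn3 (GRCm38.p6, chr5:134985964-134986213, plus strand): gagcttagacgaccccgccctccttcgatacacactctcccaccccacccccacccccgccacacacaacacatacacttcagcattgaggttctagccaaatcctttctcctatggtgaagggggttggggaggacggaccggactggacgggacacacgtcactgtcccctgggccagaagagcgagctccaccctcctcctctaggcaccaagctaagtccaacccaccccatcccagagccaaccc

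Cldn5 (GRCm38.p6, chr16:18776597-18776846, plus strand): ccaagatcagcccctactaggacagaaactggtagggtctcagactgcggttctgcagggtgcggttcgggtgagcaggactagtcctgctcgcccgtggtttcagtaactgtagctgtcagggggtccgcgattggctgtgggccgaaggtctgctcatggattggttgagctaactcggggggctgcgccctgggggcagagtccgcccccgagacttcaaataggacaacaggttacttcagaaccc

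Cgnl1 (GRCm38.p6, chr9:71771603-71771852, minus strand): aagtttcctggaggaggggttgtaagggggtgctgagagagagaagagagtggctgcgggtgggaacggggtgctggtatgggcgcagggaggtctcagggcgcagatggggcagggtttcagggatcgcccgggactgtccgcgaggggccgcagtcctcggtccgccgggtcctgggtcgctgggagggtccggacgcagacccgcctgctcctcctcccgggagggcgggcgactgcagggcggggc

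The Cldn2 stretch held AGAACA 3 times. Matches began at -184 and -179 on the gene's strand, where they share 1 base, and at -143 on the opposite strand, counted from the start site. It also held TATAAA at -35. At least 1 AGAACA was found in 19% of all 32851 promoter windows and in 6 of the 39 windows of members. These belonged to 5 of the 27 matched members, of which only Cldn2 passed the expression test. The palindromic steroid response element, in which AGAACA faces its own reverse complement across 3 bases, was in 0.00913% of all windows and in none of the 39 windows of members. The printed Cldn3, Cldn5 and Cgnl1 stretches held none of the motifs, although Cldn3 had CAGGTG at 32 bases after its start. CAGGTG was in 15 of the 39 windows of members, from 12 genes, and in 20.2% of all windows. TATAAA was in 3 of the 39 and in 13.6% of all, AGATAA in 3 of the 39 and in 11.2% of all, and AACCGGTT in 0 of the 39 and in 0.146% of all. These matches describe the letters only. The G and C share of the printed stretch was 52% for Cldn2 and 60.8% for Cldn3, against 59.6% for Cldn5 and 70.8% for Cgnl1.

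Cldn3, a claudin that tightens the seal, measured 12.44, 11.96 and 12.21 after progesterone, against 11.13, 11.17 and 10.85 after oil. Every progesterone array was above every oil array. The rise was 2.22-fold, a log2 change of 1.15 ± 0.15 (SE) with a limma adjusted p of 0.00624. The other 3 Cldn3 probe sets passed in the same direction, with log2 changes between 1.11 and 1.16.

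Cldn23, a less studied claudin, measured 9.17, 8.58 and 8.62 after progesterone, against 7.87, 7.78 and 7.52 after oil. The groups lay apart and progesterone replicate 1 stood highest. The rise was 2.09-fold, a log2 change of 1.07 ± 0.181 (SE) with a limma adjusted p of 0.0133. When oil replicate 2 was left out, the adjusted p was 0.0565. Cldn1, a barrier claudin best known from skin, measured 9.78, 9.88 and 9.79 after progesterone, against 9.35, 9.04 and 9.22 after oil. Its groups were narrow, with SDs of 0.0551 and 0.156, and it was 1.53-fold higher (log2 change 0.61, limma adjusted p = 0.0143). The Cldn1 call was lost when oil replicate 2 or progesterone replicate 2 was left out, with adjusted p-values up to 0.0566. Of its other 3 probe sets none passed. They had log2 changes of 0.03 to 0.40, and 2 of them were at the control level on every array. With the mean of the 4 probe sets the log2 change was 0.29 (adjusted p = 0.0797).

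Cldn5, which closes the endothelial barrier of blood vessels, was the claudin that fell. It measured 9.46, 9.56 and 9.44 after progesterone, against 10.18, 10.83 and 10.19 after oil. The progesterone arrays were nearly equal, while oil replicate 2 stood above the other oil arrays. The fold was 1.88 (log2 change -0.91 ± 0.181 SE, limma adjusted p = 0.0217), and the call ended without any 1 of the 3 progesterone arrays (adjusted p up to 0.0644). None of 10 endothelium markers passed in limma, and none was at the control level. An unadjusted limma p under 0.05 was found for 4 of the 10, beside 4730 of all 18193 genes. The log2 of their summed level was 11.73 to 11.76 after progesterone and 11.76 to 12.08 after oil. In a fit added after the data were seen, with the mean of these markers as a covariate, the Cldn5 log2 change was -0.55 (adjusted p = 0.394). That fit left 1 gene past the threshold over the whole array. The covariate itself did not overlap between groups, at 8.21 to 8.26 after progesterone and 8.28 to 8.61 after oil. The fit therefore cannot cleanly separate it from the treatment. Cldn1 moved from 0.61 to 0.42 and Cldn23 from 1.07 to 0.91. The log2 changes were 2.95 for Cldn2, 1.07 for Cldn3, 1.17 for Ppl, -0.78 for Cgnl1 and -0.55 for Pkp4. They were -0.32 for Tjp1, -0.79 for Dsc2 and -0.77 for Evpl, and none of these members passed. With the replicate block, Pecam1 and Tek passed as lower (adjusted p = 0.0293 and 0.0352).

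**Figure D2:**
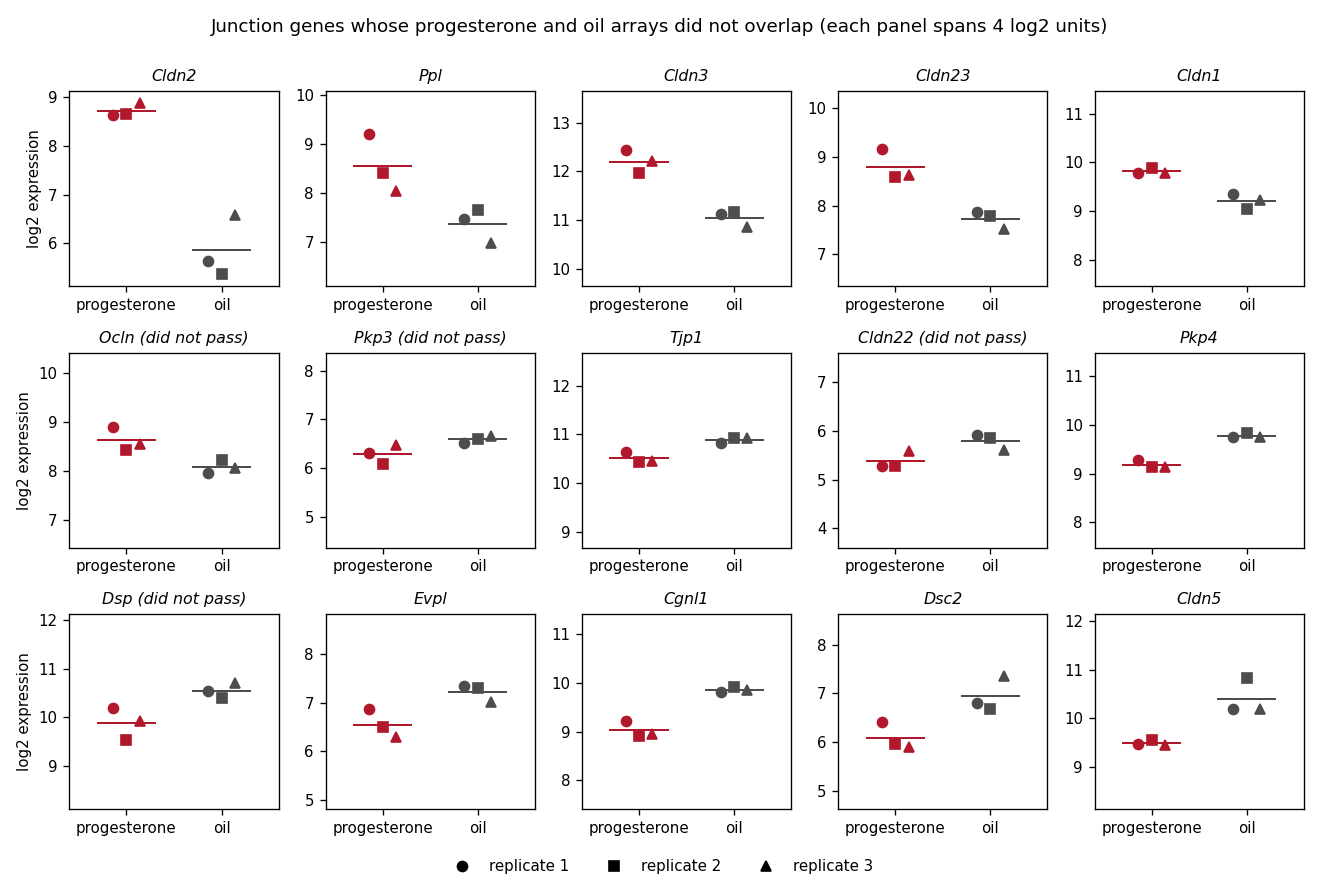
Log2 expression (vertical axis, each panel spanning 4 units) on the 3 progesterone arrays (left) and the 3 oil arrays (right) of the 15 junction genes whose groups did not overlap. Symbols give the replicate number and lines the group means, and the gap between groups is widest for Cldn2.

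The 15 claudins that did not pass had log2 changes between -0.56 and 0.41. Cldn4, a barrier claudin and close relative of Cldn3, measured 8.91, 8.22 and 8.72 after progesterone and 8.01, 8.26 and 8.34 after oil. Its groups overlapped because progesterone replicate 2 lay below the 2 highest oil arrays (log2 change 0.41, 95% confidence interval -0.03 to 0.86, limma adjusted p = 0.223). Cldn7, a claudin found along the sides of epithelial cells, measured 10.34, 9.82 and 10.98 after progesterone, against 9.85, 9.82 and 10.63 after oil. Replicate 3 was the highest in both groups, and the interval of its log2 change, -0.49 to 1.05, was wide. Cldn10, whose isoforms conduct ions in the kidney, measured 10.28, 9.41 and 9.74 after progesterone, against 10.26, 10.69 and 10.15 after oil (limma adjusted p = 0.197). Cldn22 had groups that lay apart, at 5.29, 5.29 and 5.58 after progesterone against 5.92, 5.85 and 5.60 after oil, and did not pass (adjusted p = 0.094). Cldn8 and Cldn12, both well above the controls, had intervals of -0.14 to 0.41 and -0.34 to 0.18. The mean levels of Cldn6, Cldn9, Cldn11, Cldn13, Cldn14, Cldn16, Cldn18 and Cldn19 lay between 3.17 and 4.24 in each group, at or little above the control probe sets. Cldn15, a cation-conducting claudin of the gut, had a log2 change of 0.16.

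Among the other membrane proteins of the tight junction none of 4 passed in limma, and 1 had an unadjusted p under 0.05. Ocln, occludin, measured 8.90, 8.42 and 8.56 after progesterone, against 7.95, 8.23 and 8.05 after oil. All its progesterone arrays lay above the oil arrays, with a log2 change of 0.55 (95% confidence interval 0.21 to 0.89, limma adjusted p = 0.0538). Marveld2, tricellulin, which closes the corners where 3 cells meet, had a log2 change of 0.15, and F11r, the junctional adhesion molecule JAM-A, one of -0.20. Marveld3 measured 7.01, 6.11 and 7.36 after progesterone and 7.19, 7.23 and 7.54 after oil, with progesterone replicate 2 set apart at the low end.

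Of 4 tight junction plaque proteins 2 fell. Cgnl1, paracingulin, which links junctions to the cytoskeleton, measured 9.21, 8.91 and 8.95 after progesterone, against 9.81, 9.91 and 9.86 after oil. The lowest oil array was well above the highest progesterone array, and the level was 1.79-fold lower (log2 change -0.84 ± 0.108 SE, limma adjusted p = 0.00603). None of its other 4 probe sets passed, with log2 changes from -0.33 to 0.11. The mean over its probe sets had a log2 change of -0.32 and did not pass (adjusted p = 0.0694). Cgn, cingulin, its close relative, measured 7.64, 7.00 and 6.96 after progesterone and 6.91, 7.16 and 6.92 after oil (log2 change 0.20, 95% confidence interval -0.25 to 0.66). Whether the 2 differ in their change was not tested.

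Tjp1, which encodes ZO-1, the main scaffold under claudins, measured 10.64, 10.43 and 10.46 after progesterone, against 10.83, 10.92 and 10.92 after oil. The groups lay apart by a small step, 1.30-fold lower (log2 change -0.38, limma adjusted p = 0.0458). With replicate number as a block its adjusted p was 0.0567. Tjp3, ZO-3, measured 6.65, 5.65 and 7.31 after progesterone, against 7.25, 7.30 and 7.75 after oil. The groups overlapped, but each progesterone array was below the oil array of the same number, and Tjp3 passed only with replicate number as a block (log2 change -0.90, adjusted p = 0.2 without the block and 0.0494 with it).

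In desmosomes, 1 of 6 measured cadherins fell and none rose. Dsc2, a desmocollin of simple epithelia, measured 6.41, 5.96 and 5.89 after progesterone, against 6.80, 6.67 and 7.36 after oil. The groups lay apart with oil replicate 3 highest, and the level was 1.81-fold lower (log2 change -0.86, limma adjusted p = 0.0455). A second Dsc2 probe set gave a log2 change of -0.10 and did not pass, nor did the mean of both (log2 change -0.48, adjusted p = 0.132). Dsg2, the desmoglein of simple epithelia that pairs with desmocollins, measured 9.49, 8.77 and 9.20 after progesterone and 8.87, 9.06 and 9.21 after oil. Its groups overlapped (log2 change 0.11, 95% confidence interval -0.34 to 0.55), and none of its other 5 probe sets passed. Dsc1, Dsg1a and Dsg1b, cadherins of stratified epithelium such as skin, were at or near the control level, with group means between 2.68 and 3.43. Dsc3, another such cadherin, was dim but above the controls on every array (4.13 after progesterone and 4.02 after oil). Dsg1a and Dsg1b are near-identical copies whose probes may share targets.

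Of 8 desmosomal plaque proteins 1 rose and 2 fell. Ppl, periplakin, a plakin that joins keratin to desmosomes, measured 9.20, 8.41 and 8.04 after progesterone, against 7.46, 7.64 and 6.97 after oil. The groups lay apart, yet each was spread widely, with SDs of 0.593 and 0.347, and the level was 2.29-fold higher, with a log2 change of 1.19 ± 0.307 (SE) and a limma adjusted p of 0.0491. Evpl, envoplakin, which pairs with periplakin in the cornified envelope of skin, moved the other way. It measured 6.87, 6.49 and 6.29 after progesterone, against 7.34, 7.30 and 7.01 after oil. Every progesterone array was below every oil array, and the level was 1.59-fold lower (log2 change -0.67, limma adjusted p = 0.0467). Both calls were close to the threshold in this fit, while with replicate number as a block the limma adjusted p was 0.0115 for Ppl and 0.0121 for Evpl. When each of the 6 arrays was left out in turn, Ppl passed only without progesterone replicate 3 and Evpl only without progesterone replicate 1. The calls of Tjp1 and Dsc2 likewise held only without progesterone replicate 1, with adjusted p up to 0.15 and 0.138 in the other fits, while Ppl reached 0.119 and Evpl 0.156.

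Pkp4, a plakophilin of desmosomes and adherens junctions, was lower with little spread in either group. It measured 9.29, 9.14 and 9.14 after progesterone, against 9.75, 9.83 and 9.76 after oil. The level was 1.51-fold lower (log2 change -0.59 ± 0.0891 SE, limma adjusted p = 0.00947), and its second probe set had a log2 change of -0.46 (adjusted p = 0.125). Dsp, the plakin that anchors keratin in every desmosome, measured 10.20, 9.54 and 9.92 after progesterone, against 10.54, 10.40 and 10.70 after oil. All its progesterone arrays lay below the oil arrays, with a limma adjusted p of 0.0542, and 0.0212 with replicate number as a block. The mean of its 3 probe sets had a log2 change of -0.33, against -0.66. Pkp3 also lay apart, at 6.30, 6.08 and 6.48 after progesterone against 6.52 to 6.65 after oil, and did not pass (adjusted p = 0.164). Jup, plakoglobin, measured 7.06, 7.03 and 6.92 after progesterone and 7.19, 7.28 and 7.03 after oil, with an interval of -0.40 to 0.07. Pkp2, the plakophilin of simple epithelia and heart, measured 8.01, 8.11 and 8.06 after progesterone and 8.02, 7.88 and 7.94 after oil, which bounds its log2 change between -0.09 and 0.32. Pkp1, a plakophilin of stratified epithelium, had a log2 change of 0.04.

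The general adhesion molecules of epithelium did not pass. Cdh1, E-cadherin, measured 10.41, 9.94 and 10.43 after progesterone and 10.19, 10.15 and 10.58 after oil. Its groups overlapped, with a log2 change of -0.05 and a 95% confidence interval from -0.46 to 0.37. Epcam, the epithelial adhesion molecule that binds claudins, measured 10.58, 10.11 and 11.30 after progesterone and 10.95, 10.89 and 11.52 after oil (log2 change -0.46, limma adjusted p = 0.428). Its log2 change ran from -0.78 to -0.18 when 1 array was left out, and its second probe set had one of 0.08. Cdh3, P-cadherin, had a log2 change of 0.06. None of these 3 genes had an unadjusted p under 0.05 in limma.

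**Figure D3:**
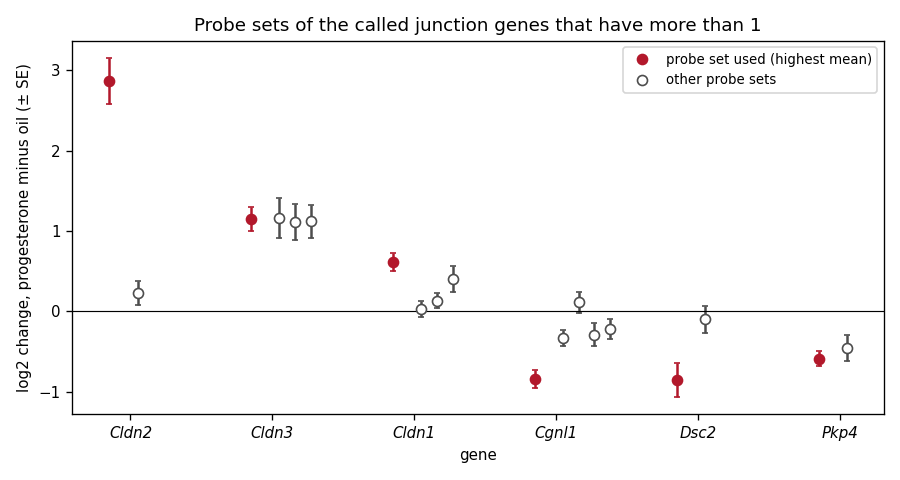
Log2 change (progesterone minus oil, vertical axis, with SE) of every probe set of the 6 genes past the threshold that have several, filled for the probe set used and open for the others. The 4 probe sets of Cldn3 stand together near 1.15, while the second probe set of Cldn2 lies at 0.23.

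Members also varied between arrays of 1 group. Over the 42 members whose mean lay above 3.34, the median SD within groups was 0.202, against 0.151 over the 16730 genes above that level. Progesterone replicate 2 was the lowest progesterone array for 23 of the 42, and progesterone replicate 1 the highest for 22. Tjp3, Marveld3, Epcam and Cldn7, named here after their values were seen, were lowest on progesterone replicate 2 within their group, and each was highest on replicate 3 in both groups. The log2 of the summed level of the 19 epithelium markers was likewise lowest on progesterone replicate 2: it was 14.41, 14.10 and 14.54 on progesterone replicates 1 to 3, against 14.49, 14.48 and 14.71 on oil replicates 1 to 3.

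None of the 19 epithelium markers passed in limma, and their median log2 change was -0.21. An unadjusted limma p under 0.05 was found for 6 of the 19, beside 4730 of all 18193 genes. With the replicate block 1 passed as higher, Ehf, and 3 as lower, Muc1, Elf3 and Prss8. With the mean of these markers as a covariate, a fit added after the data were seen, Cldn2 had a log2 change of 3.08, Cldn3 of 1.18, Cldn23 of 1.05 and Cldn1 of 0.60. All 4 stayed past the threshold in that fit, as did Cldn5, Cgnl1 and Pkp4. Cldn7 passed there as well (log2 change 0.65, adjusted p = 0.0314), and Ppl, Tjp1, Dsc2 and Evpl no longer did (adjusted p between 0.0629 and 0.114). The log2 changes of those 4 moved little, to 1.06 for Ppl, -0.36 for Tjp1, -0.75 for Dsc2 and -0.74 for Evpl.

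**Figure D4:**
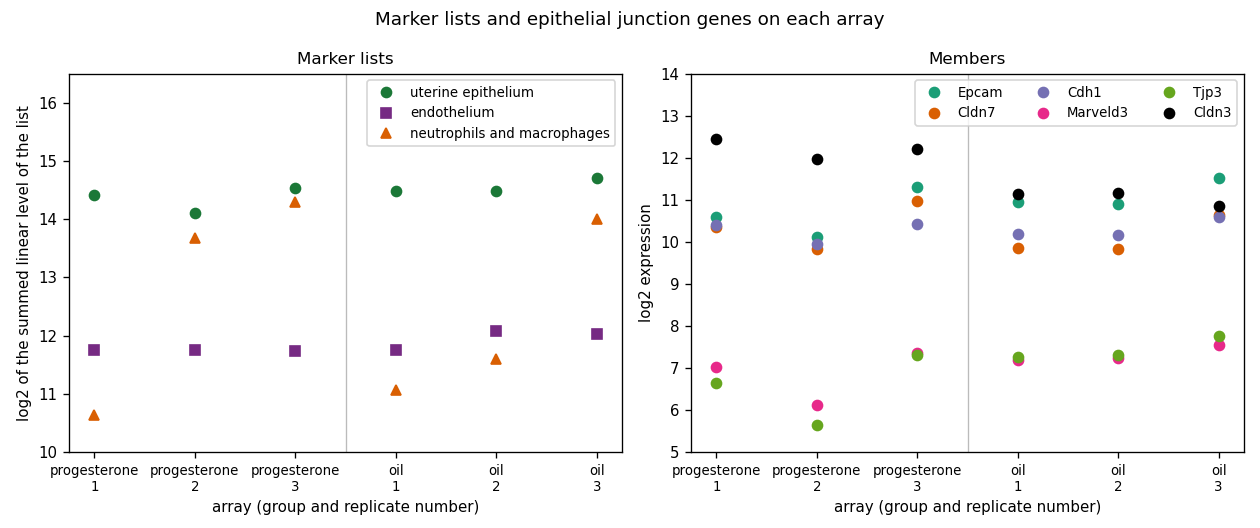
Left, log2 of the summed linear level of 3 marker lists on each array; right, log2 expression of 6 junction genes on the same arrays (progesterone, then oil, with replicate numbers on the horizontal axis). Epithelium markers and Epcam, Cldn7, Marveld3 and Tjp3 are lowest on progesterone replicate 2 among the progesterone arrays, while Cldn3 is higher on every progesterone array than on any oil array.

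The wider junction machinery was read from lists written for this tissue. Counts of each list are to be set beside the 5.92% of all genes that were higher and the 5.83% that were lower. Of 17 other membrane proteins of the tight junction and JAM family, 1 was higher and 1 lower, with a median log2 change of -0.01. Jam2, an adhesion molecule best known from endothelium and related to F11r, measured 11.81, 11.32 and 10.72 after progesterone, against 8.61, 8.69 and 8.71 after oil. It was 6.12-fold higher (limma adjusted p = 0.0024), and its other 4 probe sets also passed as higher. Emp2, a tetraspan membrane protein of epithelium, was 1.45-fold lower (adjusted p = 0.035). Of the fits that each left out 1 array, Emp2 passed only in that without oil replicate 3, and the mean of its probe sets did not pass (adjusted p = 0.0925). The replicate block added Ildr1 and Igsf5 to the higher and Emp1 to the lower genes, 3 and 2 in all.

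Among 27 scaffolds and polarity proteins, 2 were higher and 1 lower (median log2 change -0.02). Magi1, a scaffold that binds junction proteins through PDZ domains, was 1.77-fold higher (7.32 ± 0.137 after progesterone and 6.49 ± 0.0764 after oil, SD, n = 3 each, limma adjusted p = 0.00562). Wnk4, a kinase that phosphorylates claudins in the kidney, was 1.53-fold higher (adjusted p = 0.0263). Magi3, a relative of Magi1, was 1.34-fold lower (adjusted p = 0.0329), while its other probe sets had log2 changes of -0.04 and -0.03 and the mean of all of them did not pass (-0.17, adjusted p = 0.294). Of the other 4 Magi1 probe sets 1 passed, and their mean with the one used had a log2 change of 0.47, against 0.83. The call of Wnk4 held only without oil replicate 1 and that of Magi3 only without progesterone replicate 1, among the fits without 1 array, while that of Magi1 held in all 6.

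In the list of adherens junction catenins, nectins and other cadherins, 1 of 19 was higher and 2 were lower (median log2 change -0.12). Ctnnd2, delta-catenin, measured 4.14, 3.81 and 4.91 after progesterone, against 6.86, 6.50 and 7.03 after oil, and was 5.70-fold lower (limma adjusted p = 0.00395). Cdh16, a cadherin first known from kidney epithelium, was 2.01-fold lower, at 7.38 ± 0.07 after progesterone and 8.39 ± 0.165 after oil (SD, n = 3 each, limma adjusted p = 0.00364). Cdh11, a mesenchymal cadherin of stroma, was 1.61-fold higher (adjusted p = 0.0139). The second probe set of Ctnnd2 did not pass (log2 change -0.44, adjusted p = 0.0963), and the mean of both had a log2 change of -1.47, whereas that of Cdh11 did. Cdh11 lost its call without oil replicate 2 or without progesterone replicate 2.

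Keratins and hemidesmosome genes had 0 of 22 higher and 2 lower (median log2 change -0.15), beside 5.92% higher and 5.83% lower of all genes. Both that fell were listed as genes of the hemidesmosome, which fixes epithelium to its basement membrane. Whole tissue was measured, so the cells in which they changed are not known. The integrin Itgb4 was 2.16-fold lower (adjusted p = 0.0139) and the plakin Dst 1.73-fold lower (limma adjusted p = 0.00401). Other hemidesmosome genes of the list did not pass in this fit. Their log2 changes were 0.34 for Itga6, -0.01 for Cd151, -0.52 for Col17a1 and -0.43 for Plec. Itgb4 lost its call without oil replicate 1 or without progesterone replicate 2, where the highest adjusted p was 0.0554. Dst measured 10.85, 10.92 and 10.74 after progesterone, against 11.66, 11.65 and 11.58 after oil, a gap far wider than either group. Of the other 3 Dst probe sets 1 passed, with log2 changes from -0.69 to 0.00, and the mean of all had a log2 change of -0.37, against -0.79. Krt18, the partner of Krt8, measured 10.92, 10.10 and 10.66 after progesterone, against 11.25, 11.48 and 11.22 after oil, and did not pass (adjusted p = 0.0589). None of 10 connexins of gap junctions passed in limma, and 3 had an unadjusted p under 0.05, beside 4730 of all 18193 genes. With the replicate block Krt20, Plec and Vim also passed as lower, and among the connexins Gja1 passed as higher and Gjb2 as lower.

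Of 18 regulators that set epithelial against mesenchymal identity, 2 were higher and 1 lower (median log2 change 0.01). Snai1, a repressor of Cdh1 and claudin genes, was 1.84-fold higher, at 7.68, 7.73 and 7.59 after progesterone against 7.09, 6.77 and 6.51 after oil (limma adjusted p = 0.0142). Leaving out oil replicate 2 or progesterone replicate 2 took Snai1 past 0.05, to 0.0651 at most. Twist2, a mesenchymal factor, was 1.52-fold higher and Zeb2, another repressor of Cdh1, 1.34-fold lower. The replicate block added Ehf to the higher and Elf3 to the lower genes. The Twist2 call held only without progesterone replicate 3 and the Zeb2 call in none of the fits without 1 array. Among 9 markers of keratinized squamous epithelium, 1 was higher. It was Trp63, the p63 factor of stratified epithelium, at 6.66, 6.74 and 5.52 after progesterone against 4.06, 4.05 and 4.54 after oil (4.26-fold, limma adjusted p = 0.0106), on 1 of its probe sets and not on the other 3. With the mean of its probe sets the log2 change was 0.61, against 2.09. Without oil replicate 2 the Trp63 adjusted p was 0.0542. Flg, a marker of the cornified layer in the same list, was at the control level on every array.

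None of 10 smooth muscle markers, 8 mesothelium markers, 5 adipocyte markers or 4 Schwann cell markers passed in limma. An unadjusted limma p under 0.05 was found for 1, 0, 4 and 1 of them, beside 4730 of all 18193 genes. With the replicate block 4 of the 5 adipocyte markers passed as lower, Fabp4, Retn, Adipoq and Cidec (adjusted p = 0.00765, 0.0116, 0.0135 and 0.0338), as did the Schwann cell marker Mbp (adjusted p = 0.0404). Of 12 stroma markers 2 were higher, Hoxa11 and Hand2, and 1, Lum, was lower. An unadjusted limma p under 0.05 was found for 7 of the 12. Neither of the other 2 Hand2 probe sets passed, with log2 changes of 0.38 and 0.44. Hand2 lost its call without oil replicate 1 or without oil replicate 2, and Lum kept its call only without progesterone replicate 1 or without progesterone replicate 2. Under the replicate block Col1a1 joined the higher stroma markers. The median log2 change of the adipocyte markers was -0.64, and their summed log2 level was 7.48 to 9.31 after progesterone and 9.21 to 10.22 after oil.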

How the data were processed

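The deposited table holds a log2 expression value for each of 45101 Affymetrix probe sets on 6 arrays. Per the submitters' processing notes, the authors used Partek 6.6 and RMA, which corrects background, normalizes arrays by quantiles and combines the probes of a set. Further settings are not given in the sources used here. Array medians lay between 5.51 and 5.53, and the number of arrays limits the precision. Gene names came from the platform annotation: 34945 probe sets had 1 gene symbol, 932 several and 9160 none, beside 64 controls.

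Groups came from the sample titles. The brightest probe set of each of 18193 genes was fitted by lmFit and eBayes of limma 3.58.1 under R 4.3.3, without a filter or a block. Tests were two-sided, p-values were adjusted by Benjamini-Hochberg across the 18193 genes, and 0.05 was the threshold. The procedure was run on simulated data with independent noise on every array. Such data hold no shared variation between arrays, so that run does not show how reliable the calls are here. Members that passed, a chosen set of core genes and members whose groups lay apart are named with every array, and up to 3 genes past the threshold of each list. The members and lists were chosen with earlier results of these data known. Protein sequences were not used here.

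Arrays share replicate numbers across groups. Across genes, the deviations of arrays with the same number from their group means had correlations of 0.523, 0.141 and 0.636. All were positive. Deviations from a group mean are not independent of each other, so these values alone do not show that the numbers mark pairs. Arrays of different numbers are not compared here. The main fit was planned without a block, because the labels give 2 groups and no other factor. Fits with the replicate number as a block are therefore given beside it as an alternative. The labels do not state what a number marks. Alternatives were renormalization, median centring, an offset of 32, leaving out the lowest 25% or 50% of genes, all probe sets or their mean, other variance settings, adjusted p of 0.01, a 1.5-fold minimum, the replicate block and each array left out.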

Additional observations from a re-analysis of the deposited data

How the results depend on the processing

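The count of higher junction genes, 5, was between 4 and 6 and that of lower ones, 6, between 4 and 7 under quantile renormalization, median centring, the offset of 32, both filters on dim genes, trended and robust eBayes, the 1.5-fold minimum and every probe set on its own. Ocln was gained under renormalization, centring, both filters and trended eBayes, and Dsp under both filters and trended eBayes. Ppl was lost under the offset and trended eBayes, and Tjp1 under the 1.5-fold minimum and with every probe set on its own. Dsc2 and Evpl were lost under the offset, while the filter at 50% removed both before the test. With the mean of all probe sets 3 were higher and 4 lower. An adjusted p of 0.01 left 2 higher (Cldn2 and Cldn3) and 2 lower (Cgnl1 and Pkp4). The replicate block gave 5 higher and 7 lower, and it changed no call among the junction genes other than those of Tjp1, Tjp3 and Dsp.

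Leaving out 1 array gave 2 to 5 higher and 2 to 6 lower, and fewer arrays alone lower the power. The fewest higher genes, 2, remained without oil replicate 2, and 3 without progesterone replicate 2. The lower count was 2 without progesterone replicate 2 or progesterone replicate 3 and 3 without any 1 oil array. Cldn2, Cldn3, Cgnl1 and Pkp4 kept their calls in all 6 such fits. For Pkp4 the call was at the threshold without oil replicate 2, where the limma adjusted p rounded to 0.05. Without both oil replicate 3 and progesterone replicate 3, Pkp4 did not pass (limma adjusted p = 0.0585), whereas Cldn22 passed as lower. Fits added after the data were seen gave 2 higher (Cldn2 and Cldn3) and 2 lower (Cgnl1 and Cldn22) without those arrays. They gave 0 higher and 0 lower without the 3 arrays rich in neutrophil markers (oil replicate 3, progesterone replicates 2 and 3), a fit with 1 progesterone array that called 0 genes over the whole array. In it the log2 change was 3.14 for Cldn2 but -0.33 for Dsc2 and -0.24 for Tjp1, none of them past the threshold. With the epithelium marker covariate 5 were higher and 3 lower, and with the endothelium marker covariate 0 were higher and 0 lower, where 1 gene passed over the whole array. With the endothelium covariate the log2 change was -0.55 for Cldn5, 0.42 for Cldn1, 0.91 for Cldn23 and 2.95 for Cldn2. Without it these were -0.91, 0.61, 1.07 and 2.87. Outside the junction genes it was 0.37 for Wnk4 and 0.57 for Snai1, against 0.62 and 0.88 without the covariate. Whether vessel content bears on any of these changes was not tested.

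Among genes that did not pass, the log2 change ran from -0.13 to 0.11 for Cdh1 and from -0.02 to 0.56 for Cldn7 over the fits without 1 array, and from -0.06 to 0.52 for Dsg2 over all fits without arrays. The sign turned for Cdh1 without oil replicate 3 (0.09), without progesterone replicate 2 (0.11), without both replicates numbered 3 (0.01), without the 3 arrays rich in neutrophil markers (0.24) and with the epithelium covariate (0.13), for Cldn7 without progesterone replicate 3 (-0.02) and for Dsg2 without progesterone replicate 1 (-0.06). The cause of these changes was not tested.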
